A study of Mus musculus with 40 samples.

Results

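Acan, Hapln1, Prg4, Comp, Fmod, Chad, Sox9 and Cytl1 are genes best known from cartilage and tendon. These 8 genes were chosen by name, with earlier results of these data known. They were found by symbol in the count tables of aorta (55335 genes) and kidney (55382 genes). Cartilage resists pressure because aggrecan, the large proteoglycan encoded by Acan, is held on hyaluronan by link proteins such as Hapln1 within a collagen network that Comp, Fmod and Chad help to organise. Prg4 encodes lubricin, which lubricates joint surfaces, and Sox9 is the transcription factor that switches on much of this programme. The vessel wall also makes several of these molecules, and an aggrecan-rich or chondrocyte-like matrix is known from remodelled and calcifying arteries.

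The mice were on a C57BL/6 background and carried Cre under the Tie2 promoter (Tek-cre), which is active in endothelial cells and also known to act in blood cell precursors. EC-EGFR-KO mice (KO) had EGFR flox/flox alleles as well, whereas the EC-EGFR-WT controls (WT) had the same Cre and no loxP sites. After a week of mixed chow, from 6 weeks of age, they received a standard-fat diet (SFD, written SD in the labels, 10% of energy from fat) or a high-fat diet (HFD, 60% of energy from fat) for 18 weeks. RNA-seq was available for 5 aortas and 5 kidneys in each of WT SFD, WT HFD, KO SFD and KO HFD, 40 libraries in all, and levels are given in FPM, which is edgeR's CPM on TMM-normalised library sizes.

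Total counts were 17520161 to 36452741 per aorta library and 19643033 to 48833447 per kidney library. Egfr was at 29.9 to 54.2 FPM in the 10 WT aortas and at 36.9 to 54.6 FPM in the 10 KO aortas, so whole aorta did not separate the genotypes by this gene, whose count takes in all exons and all cell types. Smooth muscle genes were abundant in every aorta (25906 to 41436 FPM summed over the list), and endothelial genes ranged from 302 to 1893 FPM. In aorta, R-1 (labelled WT SFD) and R-12 (labelled KO SFD) differed by less than sampling noise (median chi-square over genes 0.0279, against 0.455 for sampling noise alone and 1.5 for the next closest pair). The kidney libraries a12 (WT HFD) and a1 (KO HFD) did so as well (0.0282). Since each such pair carries labels of both genotypes, the HFD differences over both genotypes are also given without both. In bulk tissue, fewer cells of a type and less RNA per cell cannot be told apart.

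All 8 genes passed the filter on low counts in aorta, with levels that spanned a wide range. Per kb of exon, the median over 19 aortas (R-12 left out) was 398 FPM for Cytl1, 72.3 for Fmod, 28.6 for Comp, 2.75 for Acan, 1.58 for Hapln1, 1.49 for Prg4, 0.912 for Sox9 and 0.731 for Chad. The per-library ranges of Cytl1 and Fmod did not overlap (126 to 621 against 49.5 to 124 FPM per kb), nor did those of Fmod and Comp (highest Comp value 46.0) or of Comp and Acan (19.7 to 46.0 against 1.54 to 8.27). The 4 genes below Acan overlapped with it and with one another. Thus the most abundant members in aorta were a secreted cytokine-like protein, a collagen-binding proteoglycan and a tendon and cartilage glycoprotein, and the genes that define cartilage most closely were low.

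HFD and SFD were first compared over both genotypes, the comparison with the largest groups. No member met the rule used by the study, an adjusted p under 0.05 with a fold change over 1.5 and a mean over 5 FPM (0 of 8, against 0.0265% of the 15122 genes tested). At an unadjusted p under 0.05 there were 7 of 8 members, against 6.7% of all genes. Of these 4 were higher under HFD (2.57% of all genes) and 3 lower (4.13% of all genes). Their adjusted p-values were 0.445 to 0.734 with edgeR's quasi-likelihood test, so these are directions below the threshold. Since the members were chosen with earlier results of these data known, the shares over all genes describe them and are no test. Without R-1 and R-12 the count was 5 of 8 (3.78% of all genes), and Sox9 and Prg4 were the genes that dropped out. When R-16, which stands apart in Prg4, was left out too, the count was 3 of 8 (4.63% of all genes), with Acan, Comp and Sox9. The median log2 difference of the 8 members was 0.20, against -0.0014 over all genes, and it averages opposite directions.

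Acan (ENSMUSG00000030607, chromosome 7, 79053483 to 79115099 in GRCm38, plus strand) was at 12.9, 12.7, 14.9, 12.4 and 30.1 FPM in WT SFD and at 27.0, 23.0, 22.7, 20.5 and 61.8 FPM in WT HFD. In KO it was at 11.5, 13, 24.4, 17.2 and 12.1 FPM under SFD and at 14, 28.2, 20.5, 26.6 and 54.1 FPM under HFD. All 10 HFD aortas were above the SFD median, but the groups overlapped in both genotypes. In WT the overlap was R-5 of SFD alone, whereas in KO it took in several libraries of each diet. The mean was 16.6 ± 7.60 FPM in WT SFD and 31.0 ± 17.4 FPM in WT HFD, 15.6 ± 5.38 FPM in KO SFD and 28.7 ± 15.3 FPM in KO HFD (SD, n = 5 each). The log2 difference of HFD against SFD was 0.90 (SE 0.37) in WT and 0.88 (SE 0.37) in KO, and over both genotypes it was 0.89 (SE 0.26, adjusted p = 0.449 from edgeR). When any 1 library was left out, the value over both genotypes was 0.68 to 1.05. The value was 0.82 without R-1 and R-12. Single libraries moved the values within a genotype in both directions. In WT the difference was 0.49 without R-10 and 1.23 without R-5, and in KO it was 0.52 without R-20.

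Hapln1 (ENSMUSG00000021613, chromosome 13, 89539796 to 89611652, plus strand), the link protein that fixes aggrecan to hyaluronan, was at 7.67, 8.33, 9.35, 5.91 and 13.6 FPM in WT SFD. Under HFD, WT aortas had 9.26, 18.4, 8.56, 11 and 12.7 FPM. In KO the values were 5.67, 7.53, 12.6, 7.84 and 8.60 FPM under SFD and 12.1, 7.49, 12.4, 14.4 and 14.4 FPM under HFD. Although 9 of the 10 HFD aortas lay above the SFD median, the groups overlapped in each genotype. The log2 difference over both genotypes was 0.47 (SE 0.18, adjusted p = 0.572 from edgeR), and it was 0.43 without R-1 and R-12. Acan and its link protein were therefore both higher under HFD without either passing the threshold. Over the 19 aortas their log2 levels were related (Pearson's r 0.60, permutation p = 0.006, adjusted p = 0.0466 over 28 member pairs, Spearman's rho 0.64, permutation p = 0.0042, adjusted p = 0.118). The relation was r = 0.87 in the 9 SFD aortas and 0.14 in the 10 HFD aortas. Without the 2 aortas farthest from the median of Acan it was 0.58.

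**Figure D1:**
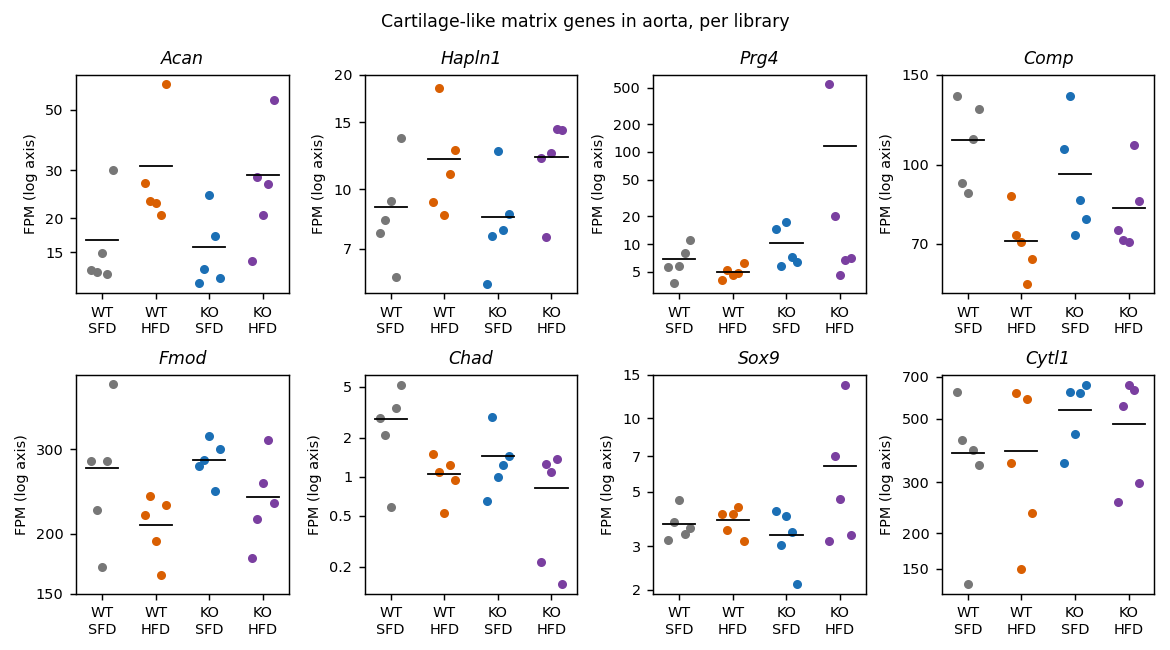
Level of each of the 8 genes in the 20 aorta libraries, in FPM on a log axis, by genotype and diet (5 libraries per group, horizontal lines are group means). Acan was above the SFD median in all 10 HFD libraries, Comp was lower in all WT HFD than in all WT SFD libraries, and the Prg4 mean of KO HFD rests on R-16 at 541 FPM.

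Comp (ENSMUSG00000031849, chromosome 8, 70373558 to 70382066, plus strand), a pentameric glycoprotein that binds collagen fibrils, went the other way. In WT it was at 136, 92.1, 88.1, 112 and 128 FPM under SFD and at 86.8, 72.8, 70.4, 58.4 and 65.3 FPM under HFD. Every WT HFD aorta was thus below every WT SFD aorta. Comp was the one member of 8 whose WT HFD libraries were all below its WT SFD libraries, against 0.271% of all genes. In KO it was at 107, 136, 72.8, 85.4 and 78.3 FPM under SFD and at 74.5, 71.1, 70.7, 109 and 84.9 FPM under HFD, and these groups overlapped. The mean was 111 ± 21.4 FPM in WT SFD and 70.7 ± 10.5 FPM in WT HFD, a log2 difference of -0.66 (SE 0.18, adjusted p = 0.876 from edgeR), and it was 96.0 ± 26.1 FPM in KO SFD and 82.1 ± 16.3 FPM in KO HFD (log2 -0.23, SE 0.18). Over both genotypes it was -0.44 (SE 0.13, adjusted p = 0.445 from edgeR). Without R-1 and R-12 the difference was -0.57 in WT, -0.06 in KO and -0.32 over both. The interaction, which tests whether the HFD difference depends on genotype, was 0.43 (SE 0.25, adjusted p = 1.00 from edgeR) for Comp, so a dependence on genotype was not shown. Without R-1 and R-12 it was 0.51, with an unadjusted p of 0.0396 from edgeR.

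Fmod (ENSMUSG00000041559, chromosome 1, 134037254 to 134048277, plus strand) encodes fibromodulin, a small leucine-rich proteoglycan that regulates collagen fibril assembly. It was at 284, 224, 171, 284 and 409 FPM in WT SFD, and at 219, 239, 193, 164 and 229 FPM in WT HFD. In KO it was at 276, 284, 319, 245 and 300 FPM under SFD and at 178, 215, 255, 314 and 231 FPM under HFD. Of the 10 HFD aortas, 9 were below the SFD median, with overlap in both genotypes. The log2 difference over both genotypes was -0.32 (SE 0.13, adjusted p = 0.626 from edgeR), and it was -0.32 without R-1 and R-12 as well. The other small leucine-rich proteoglycans were described as a background list of 9, of which 7 passed the filter. They were abundant, led by Dcn (mean 1768 FPM), Ogn (1646), Prelp (594) and Lum (265). None of the 7 passed the threshold under HFD, the median log2 difference was -0.22, and Podn alone had an unadjusted p under 0.05 (log2 -0.35, SE 0.14).

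Chad (ENSMUSG00000039084, chromosome 11, 94565047 to 94569127, plus strand) encodes chondroadherin, which anchors chondrocytes to collagen, and was the least abundant member per kb. It was at 2.87, 2.11, 0.581, 3.43 and 5.17 FPM in WT SFD and at 1.51, 1.1, 0.524, 1.23 and 0.936 FPM in WT HFD. KO aortas had 0.650, 2.92, 0.999, 1.24 and 1.46 FPM under SFD and 0.218, 1.27, 1.08, 1.39 and 0.148 FPM under HFD. All 10 HFD values were below the SFD median, yet in each genotype the groups overlapped. With 3 to 118 counts per library these are the least precise values of the 8. The log2 difference over both genotypes was -1.12 (SE 0.40, adjusted p = 0.529 from edgeR), and it was -0.90 without R-1 and R-12.

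The other cartilage genes were a list of 24, of which 15 passed the filter in aorta. None passed the threshold under HFD, and their median log2 difference was -0.05. The most abundant were Vcan (179 FPM), which encodes the vascular proteoglycan versican, Sox6 (14.1), Sox5 (11.8) and Ihh (6.87). Named after their values were seen, Col9a1 (0.547 FPM, log2 -1.32, SE 0.30, adjusted p = 0.207 from edgeR) and Matn4 (1.37 FPM, log2 -0.78, SE 0.24) lay below and Vcan (log2 0.26, SE 0.10) above. Col2a1, the main collagen of cartilage, had a mean of 0.321 FPM and at most 2.76 FPM (R-5), and the cartilage-specific Cnmd, Matn1 and Ucma had means of 0.0238, 0.0285 and 0.0394 FPM. Of 12 proteoglycan-degrading enzymes and inhibitors, 8 were tested, led by Timp2 (1061 FPM), Timp3 (573), Adamts1 (252) and Mmp2 (163), and none passed the threshold or had an unadjusted p under 0.05 under HFD. Of 12 chondrogenic signalling genes, 11 were tested and none passed. Grem1, a secreted BMP antagonist singled out after its values were seen, had the largest log2 difference among them (-3.37, SE 0.75, adjusted p = 0.207 from edgeR). None of 5 bone and calcification genes tested (of 8, led by Mgp at 4120 FPM) and none of 3 tendon and ligament genes tested (of 5, led by Tnc at 232 FPM) passed either. Of the 8 adipocyte genes, Cfd, which encodes the adipokine adipsin, fell by 2.44 on the log2 scale (SE 0.42, adjusted p = 0.0356 from edgeR), and the median of the list was -0.77. The list differed by genotype too, with a median of -1.41 for KO against WT under SFD. There 7 of the 8 were lower at an unadjusted p under 0.05 from edgeR (2.28% of all genes in either direction), and 0 passed the adjusted p. Over the 19 aortas, Acan was lower where the adipocyte list was higher (r -0.63, permutation p = 0.00429, adjusted p = 0.0515 over 72 relations of 8 members with 9 lists, rho -0.51, permutation p = 0.0264, adjusted p = 0.279). This r was -0.43 in SFD, -0.74 in HFD, -0.77 for deviations from the group means and -0.48 without R-2 and R-10. For the other 7 members r with the adipocyte list was between -0.47 (Hapln1) and 0.31 (Comp), with adjusted permutation p-values for r of at least 0.293.

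Sox9 (ENSMUSG00000000567, chromosome 11, 112782224 to 112787760, plus strand) was close to uniform in 3 of the 4 groups. It was at 3.18, 3.77, 4.65, 3.38 and 3.55 FPM in WT SFD, at 4.08, 3.52, 4.08, 4.35 and 3.16 FPM in WT HFD and at 4.18, 3.04, 4.0, 3.42 and 2.11 FPM in KO SFD. KO HFD aortas had 3.17, 7.01, 4.66, 13.6 and 3.35 FPM. R-19 and R-17 were above all other aortas, R-18 was level with the highest library of the remaining groups, and R-16 and R-20 lay within their range. The log2 difference of HFD against SFD was 0.05 (SE 0.31) in WT and 0.93 (SE 0.31, adjusted p = 0.987 from edgeR) in KO, where it was 0.44 without R-19. Over both genotypes it was 0.49 (SE 0.22), 0.45 without R-1 and R-12 and 0.24 without R-19. The interaction was 0.87 (SE 0.44, adjusted p = 1.00 from edgeR) for Sox9 and 0.40 without R-19. Rasd1, a glucocorticoid-inducible Ras-like gene, and Pim1, a kinase gene induced by cytokines, were among the 5 genes most like Sox9 over the 19 aortas (r 0.89 and 0.82). R-19 had 101 FPM of Rasd1 and 103 FPM of Pim1, against at most 16.1 and 24.0 FPM in the others.

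Within each genotype under HFD, members with an unadjusted p under 0.05 were 4 of 8 in WT (against 2.61% of all genes) and 3 of 8 in KO (against 4.56%). In WT these were Acan, Comp, Chad and Fmod, in KO Acan, Sox9 and Prg4. Without R-1 and R-12 they were 2 of 8 in WT, Comp and Chad, both lower (1.96% of all genes), and 2 of 8 in KO, Sox9 and Prg4 (2.73% of all genes). No member met the study's rule in WT (against 0.00661% of all genes) or in KO (against 0% of all genes). For KO against WT, 0 of 8 members passed the adjusted p under SFD or HFD (0% of all genes in both). Under SFD, 0 of 8 also had an unadjusted p under 0.05 (2.28% of all genes), and the log2 differences ran from -0.94 for Chad to 0.58 for Prg4. Without R-1 and R-12, Chad was at -1.38 in this comparison, with an unadjusted p of 0.0387. Under HFD, 2 of 8 did, Prg4 and Sox9 (5.85% of all genes). In the interaction 0 of 8 passed the adjusted p (0% of all genes) and Prg4 alone had an unadjusted p under 0.05 (0.84% of all genes). There were 2 of 8, Prg4 and Comp, without R-1 and R-12 (0.865% of all genes). The interaction for Prg4 was 3.96 (SE 1.41), and it ran from 0.38 to 4.27 when any 1 library was left out. The comparisons share libraries: WT HFD enters the HFD difference in WT and the KO difference under HFD, and the other groups likewise.

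**Figure D2:**
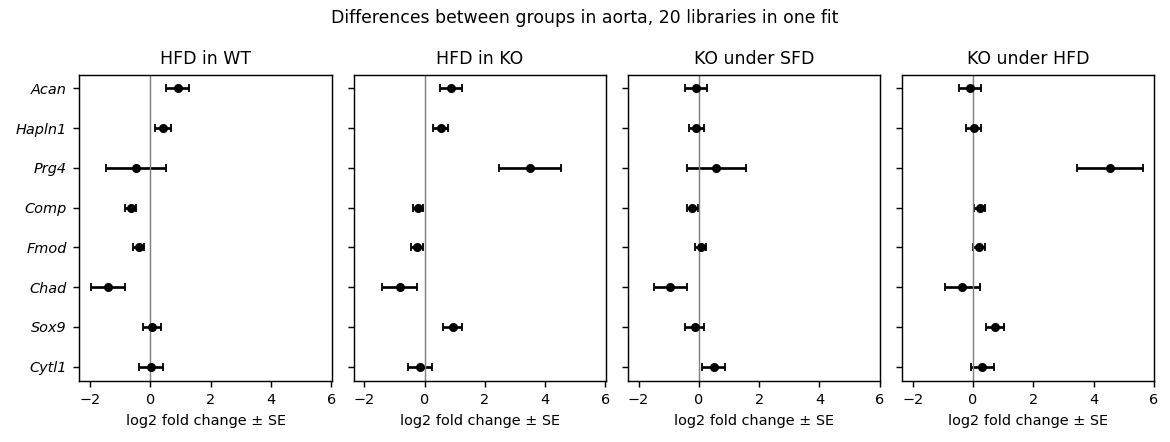
Log2 fold change with its standard error for the 8 genes in 4 comparisons in aorta, from one edgeR fit of 20 libraries. Acan lies at 0.90 and 0.88 under HFD in WT and KO, Comp at -0.66 and -0.23, and Prg4 at 3.50 and 4.55 in the comparisons with KO HFD.

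Prg4 (ENSMUSG00000006014, chromosome 1, 150449412 to 150466165, minus strand) owed its higher mean under HFD in KO to 1 library. It was at 5.68, 3.73, 5.70, 8.05 and 11.1 FPM in WT SFD, at 4.08, 5.16, 4.60, 4.80 and 6.14 FPM in WT HFD and at 14.5, 5.82, 17.5, 7.14 and 6.39 FPM in KO SFD. KO HFD aortas had 541, 20.2, 4.66, 6.71 and 7.10 FPM. R-16, with 9918 counts of the gene, was thus far above the next highest aorta. The log2 difference of KO against WT under HFD was 4.55 (SE 1.09, adjusted p = 0.388 from edgeR). Without R-16 this difference was smaller but still positive, at 0.96. The HFD difference in KO was 3.50 (SE 1.03), and without R-16 it was -0.08. Over both genotypes it was 1.52 (SE 0.70), 1.41 without R-1 and R-12 and -0.27 without R-16. The mean of the other 4 KO HFD aortas was 9.68 ± 7.12 FPM (SD, n = 4). Exons of Prg4 overlap those of Tpr on the opposite strand, and Tpr was at 80.6 FPM in R-16, within its range of 61.5 to 166 FPM over all aortas.

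Prg4 was the third of the 10 genes with the highest ratio of R-16 to the next aorta, a list chosen after its values were seen. The genes around it were Slpi, a secreted protease inhibitor (498 FPM, at most 8.47 in the others), Alox15, a lipoxygenase of resident macrophages (412 against 12.2), Padi4, a histone-citrullinating enzyme of granulocytes (58.6 against 2.70), and Itgam, the integrin CD11b of myeloid cells (99.2 against 5.60). F5, coagulation factor V, and Saa3, an acute-phase protein, were at 93.8 and 37.9 FPM, against at most 8.73 and 3.2 FPM. The 10 macrophage and neutrophil genes, a list added after R-16 was seen, summed to 2150 FPM in R-16 and to 223 to 563 FPM in the other 19 aortas, 1873 FPM of it from Lyz2. The 9 lymphoid genes summed to 118 FPM in R-16 and 68.3 FPM in R-11, against 1.29 to 14.1 FPM elsewhere. Mesothelial genes were near 0 throughout (at most 2.67 FPM over the list of 5). Red blood cell genes were highest in R-11 and R-16 (80051 and 61054 FPM), and R-16 was the third lowest aorta in endothelial genes (585 FPM). The part of these genes' source cells in the Prg4 value was not tested.

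**Figure D3:**
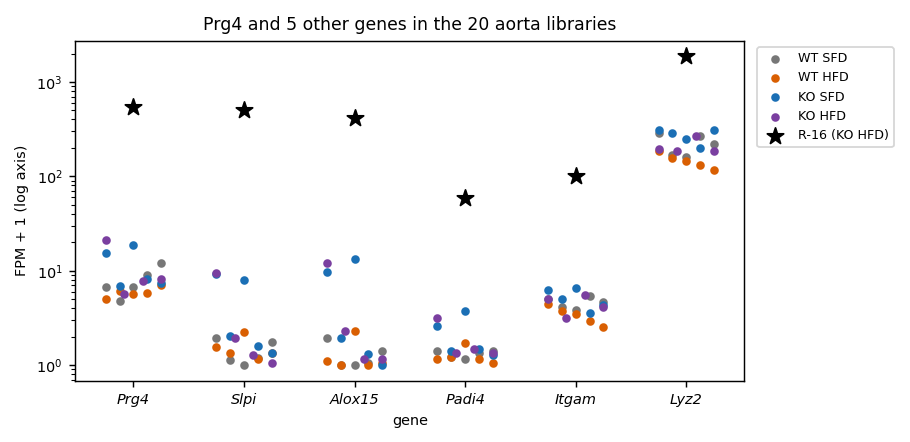
Levels of Prg4 and 5 myeloid or secreted-protein genes in the 20 aorta libraries, as FPM + 1 on a log axis, with R-16 of KO HFD as a star and the other libraries as points by group. R-16 stands at 541 FPM for Prg4 and 498 FPM for Slpi, above every other aorta in all 6 genes.

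Cytl1 (ENSMUSG00000062329, chromosome 5, 37735519 to 37739820, plus strand), a secreted protein first known from blood progenitors and cartilage, had the highest levels and differed least between the diets. It was at 617, 421, 133, 390 and 344 FPM in WT SFD and at 350, 612, 151, 585 and 234 FPM in WT HFD. KO aortas had 351, 618, 442, 614 and 652 FPM under SFD and 256, 553, 655, 629 and 298 FPM under HFD. Each group held both high and low libraries. The log2 difference over both genotypes was -0.07 (SE 0.28) and 0.08 without R-1 and R-12, and KO against WT differed by 0.49 (SE 0.39) under SFD and 0.31 (SE 0.39) under HFD.

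Over the 19 aortas, the log2 level of Cytl1 followed the summed level of 9 endothelial genes such as Pecam1, Vwf, Tek and Tie1 (Pearson's r 0.93, permutation p = 1e-05, adjusted p = 0.00072, Spearman's rho 0.89, permutation p = 2e-05, adjusted p = 0.00144). The smallest p that the permutations could give was 1e-05, and p-values were adjusted over 72 relations, 8 members against 9 lists. The relation was r = 0.94 in the 9 SFD aortas, 0.93 in the 10 HFD aortas and 0.92 for deviations from the group means, and 0.83 without R-3 and R-8, the 2 aortas lowest in endothelial genes. Cytl1 ran opposite to the smooth muscle list (r -0.67, permutation p = 0.0016, adjusted p = 0.0236, rho -0.70, permutation p = 0.00125, adjusted p = 0.03, r -0.58 without R-8 and R-15). The 5 genes most like it, chosen by correlation after the values were seen, were AU021092, Ecscr, Tie1, Fam189a2 and Myct1 (r 0.96 to 0.98). Chad had r 0.38 with the endothelial list (adjusted permutation p = 0.465), and 0.78 for deviations from the group means. With the smooth muscle list its r was -0.28 (adjusted permutation p = 0.551), and -0.68 for deviations.

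The 250 bases before the transcription start are shown for Cytl1 and for Tie1, the endothelial receptor gene that moved with it, because both were searched for AGGAAG, a form of the ETS factor motif common in endothelial promoters. The motif was searched on both strands and matches are in capitals. The sequences are from RefSeq on GRCm38.p6, chr5:37735269-37735518 on the plus strand for Cytl1 and chr4:118489850-118490099 on the minus strand for Tie1.
Cytl1: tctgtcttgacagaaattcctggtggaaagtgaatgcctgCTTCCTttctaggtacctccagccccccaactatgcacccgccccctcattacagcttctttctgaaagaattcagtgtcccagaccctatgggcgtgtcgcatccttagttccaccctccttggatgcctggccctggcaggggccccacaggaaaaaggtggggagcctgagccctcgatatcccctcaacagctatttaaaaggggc
Tie1: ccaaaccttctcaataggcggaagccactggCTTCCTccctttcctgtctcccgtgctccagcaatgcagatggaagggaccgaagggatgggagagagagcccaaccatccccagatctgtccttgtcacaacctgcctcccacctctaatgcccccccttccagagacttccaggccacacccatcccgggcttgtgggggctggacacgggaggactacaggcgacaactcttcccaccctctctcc
Each promoter held 1 match, as CTTCCT in the printed strand. Of 32851 promoters of the same length, 29.5% held the motif. Promoters of 5 of the 8 members were in the RefSeq table, those of Acan, Chad, Cytl1, Fmod and Hapln1, and no AACAAT, a SOX factor motif, was in any of them on either strand (9.42% of all promoters held it).

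**Figure D4:**
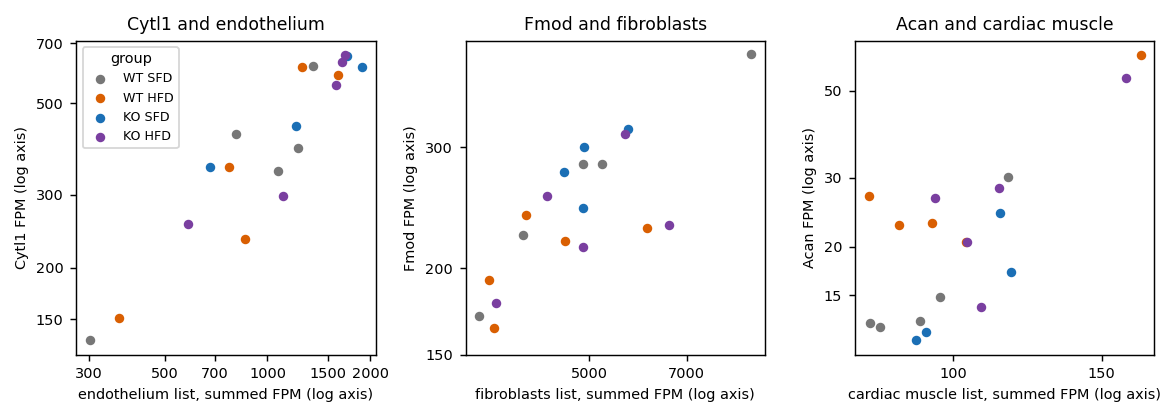
Level of Cytl1, Fmod and Acan in 19 aortas (R-12 left out) against the summed level of the endothelial, fibroblast and cardiac muscle lists, in FPM on log axes, coloured by group. Cytl1 follows the endothelial list in every group (r 0.93), Fmod the fibroblast list (r 0.79), and Acan the cardiac list (r 0.76, and 0.38 without R-10 and R-20).

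Fmod followed the fibroblast list of 6 genes (r 0.79, permutation p = 9e-05, adjusted p = 0.00324, rho 0.71, permutation p = 0.00108, adjusted p = 0.03). The relation was r = 0.94 in SFD, 0.63 in HFD and 0.63 without R-5 and R-3. The genes most like Fmod were Podn, Pdgfrl, Mmp2, Gdf10 and Olfml3 (r 0.86 to 0.92), among them a small leucine-rich proteoglycan and a matrix metalloproteinase. Acan had a relation with the cardiac muscle list (r 0.76, permutation p = 0.00038, adjusted p = 0.00912, rho 0.57, permutation p = 0.0116, adjusted p = 0.209). The relation was r = 0.83 in SFD, 0.74 in HFD and 0.82 for deviations from the group means, but 0.38 without R-10 and R-20, the 2 aortas with the highest list level. Acan ran opposite to the skeletal muscle list (r -0.67, permutation p = 0.00164, adjusted p = 0.0236, rho -0.51, permutation p = 0.0259, adjusted p = 0.279), with r -0.43 in SFD, -0.72 in HFD and -0.43 without R-20 and R-10. With the fibroblast list Acan had r 0.52 (permutation p = 0.0217, adjusted p = 0.195, rho 0.47, permutation p = 0.0441, adjusted p = 0.279), with r 0.73 in SFD, 0.86 in HFD, 0.83 for deviations from the group means and 0.51 without R-5 and R-3. Of the 72 relations, 5 passed by Pearson's r and 3 of these by Spearman's rho as well. Most of the level of the cardiac muscle list was Ryr2 (mean 72.3 FPM, highest in R-10 at 146 FPM). Nppa and Myh7, which define cardiac muscle, had means of 0.0600 and 0.334 FPM. The genes most like Acan were Ank, which encodes a pyrophosphate transporter that limits calcification, Polr2b, Tspan2, Kif26b and Slc35b4 (r 0.89 to 0.95). For Hapln1 they included Vcan (r 0.82), which encodes another proteoglycan that link proteins hold on hyaluronan. For Comp they were Nbl1, Sfrp4, Pcolce, Pi16 and Tmem221 (r 0.79 to 0.87).

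The members did not behave as one programme over the aortas. Of the 28 pairs, 16 had a positive r and 12 a negative one, with a median of 0.04 and a range from -0.31 to 0.62. The negative pairs include Prg4 with every other member except Hapln1 (r 0.06). R-16 weighs heavily in each of these, at 541 FPM of Prg4 against at most 20.2 FPM in the other aortas. Among pairs without Prg4, the lowest r was that of Acan with Comp (-0.31). Beside Acan with Hapln1, the pairs Comp with Chad, Comp with Fmod and Chad with Fmod had an adjusted permutation p of 0.0466 by Pearson's r (0.60, 0.62 and 0.61). By Spearman's rho their adjusted permutation p was 0.237 in each case. Without the 2 aortas farthest from the median of the first gene, their r was 0.32, 0.48 and 0.39. It was 0.68, 0.33 and 0.61 in the 9 SFD aortas and 0.05, 0.72 and 0.32 in the 10 HFD aortas. For deviations from the group means, r ran from -0.35 (Cytl1 with Prg4) to 0.74 (Chad with Fmod). There Chad with Cytl1 was at 0.73, against 0.38 over all 19 aortas, Comp with Fmod was at 0.60 and Comp with Chad at 0.37. For these deviations Prg4 had a negative r with every other member, from -0.35 to -0.006 (Hapln1), and Acan with Cytl1 was negative as well (-0.18). The sign for Prg4 did not hold throughout. In the 9 SFD aortas, which do not include R-16, its r ran from -0.15 (Chad) to 0.57 (Fmod). Spearman's rho of Prg4 over the 19 aortas ran from -0.14 (Sox9) to 0.31 (Fmod). The 5 genes most like each member were different genes for all 8. Lists this short, drawn from all genes that passed the filter, cannot tell whether the members vary together. The mean centred log2 level of the 8 members was highest in R-5, R-19 and R-16 and lowest in R-3 and R-8. R-16 stood far above all other aortas in Prg4 (541 FPM). Among the KO HFD aortas it was the lowest in Acan, Sox9, Cytl1 and Fmod. In Comp, Chad and Hapln1 it was neither the highest nor the lowest of them. Its high mean therefore does not stand for high levels of the 8 members together. Among the 10 genes most like the mean of the members were Smpdl3a, Tlr2, Hspa12a, Sdc3, Cxcl2, Pigt, Cd86, Gm21093 and Cenpe (r 0.70 to 0.79). Tlr2, Cxcl2 and Cd86 are known from macrophages.

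In kidney the same genes had another order, and only some kept the direction of their HFD difference. Over both genotypes, Sox9 was higher and Fmod lower under HFD in both tissues. For Sox9 the aortic difference was small, at 0.49 (SE 0.22) over both genotypes, 0.24 without R-19 and 0.05 (SE 0.31) in WT. Comp, Chad and Hapln1 had opposite directions in the tissues, and in aorta the direction of Cytl1 and Prg4 changed with the libraries left out. A difference between the tissues was not tested. Acan had 0 counts in all 20 kidney libraries, which allows up to 0.00574 FPM over the 522719471 counts together and 0.0614 to 0.153 FPM in a single library, for counting error only. The other 7 members passed the filter. Fmod was the most abundant in FPM (3.54 to 8.98) and Cytl1, so abundant in aorta, was at 0.0875 to 0.784 FPM. No member met the study's rule for HFD over both genotypes (0 of 7, against 2.92% of 15943 genes). By the adjusted p alone 3 of 7 differed, Sox9, Chad and Fmod, against 16.4% of all genes.

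Sox9 in kidney was at 0.233, 1.03, 0.437, 0.114 and 0.207 FPM in WT SFD and at 4.21, 3.05, 3.11, 4.36 and 2.28 FPM in WT HFD. In KO it was at 0.506, 0.247, 0.279, 0.714 and 0.538 FPM under SFD and at 3.03, 3.51, 2.54, 3.76 and 2.51 FPM under HFD. Every HFD kidney was above every SFD kidney. It was the one member of 7 for which the 10 HFD and 10 SFD libraries did not overlap, with HFD higher, against 1.35% of all genes. Sox9 rose by 2.91 on the log2 scale over both genotypes (SE 0.28, adjusted p = 4.3e-07 from edgeR), by 3.09 (SE 0.40, adjusted p = 5.4e-05) in WT and by 2.74 (SE 0.40, adjusted p = 0.00018) in KO. The counts behind these values were 3 to 24 per SFD library and 53 to 145 per HFD library. The level stayed under the 5 FPM that the study's rule asks for, which is why that rule did not call it. When any 1 library was left out the difference was 2.79 to 3.26, and without a1 and a12 it was 2.93. The 5 genes most like Sox9 over 19 kidneys (a12 left out) were Etv4, an ETS transcription factor gene, Gulo, Clic6, Slc6a7 and Anxa6 (r 0.94 to 0.97), chosen after the values were seen.

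Chad rose by 1.23 on the log2 scale in kidney (SE 0.39, adjusted p = 0.0347 from edgeR), from 0 to 0.420 FPM in SFD to 0.231 to 0.757 FPM in HFD libraries, whereas in aorta its HFD values were the lower ones. These values rest on at most 20 counts per library, and the call was lost in 11 of the 20 fits that left out 1 library. Without a1 and a12 the difference was 1.41, with an adjusted p of 0.0175 from edgeR. Fmod fell by 0.41 on the log2 scale (SE 0.12, adjusted p = 0.0205 from edgeR), and all 10 HFD kidneys were below the SFD median. Without a1 and a12 it was -0.36, with an adjusted p of 0.0588. Hapln1 was at 0.786 to 1.73 FPM in SFD and 0.465 to 1.19 FPM in HFD kidneys (log2 -0.48, SE 0.17, adjusted p = 0.0536 from edgeR), and the difference was -0.51 without a1 and a12. Comp, Cytl1 and Prg4 had adjusted p-values of 0.306, 0.167 and 0.665. KO against WT over both diets gave 0 of 7 members past the adjusted p (0% of all genes) and 0 of 7 at an unadjusted p under 0.05 (4.82% of all genes).

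**Figure D5:**
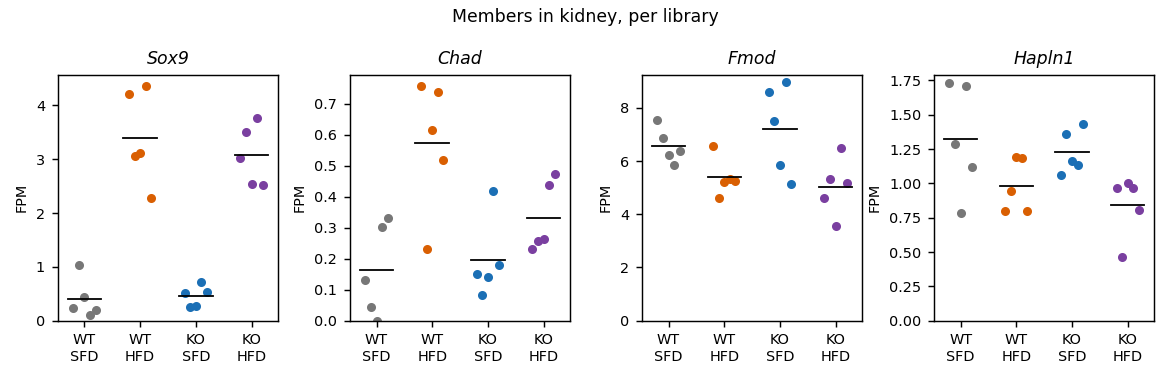
Level of Sox9, Chad, Fmod and Hapln1 in the 20 kidney libraries in FPM, by genotype and diet (5 libraries per group, horizontal lines are group means). Sox9 is between 0.114 and 1.03 FPM in all SFD libraries and between 2.28 and 4.36 FPM in all HFD libraries.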

How the data were processed

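Libraries were prepared from oligo(dT)-selected RNA and sequenced paired-end. The authors deposited raw counts per gene, one table per tissue. The submitters' notes name HISAT2 2.1.0, featureCounts and mm10, whereas the study's methods name TopHat2 as mapper. Whether counting used strand is not given in the sources used here. All genes on chromosomes 9, X, Y and MT, and 1376 of 2528 on chromosome 8 in aorta, had no counts in any library and are not analysed here. All 8 members had counts in aorta.

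Each tissue was fitted with edgeR 4.0.16 (R 4.3.3) over 20 libraries and 4 groups, with TMM normalisation, filterByExpr, the robust quasi-likelihood test and Benjamini-Hochberg adjustment over all genes. KO and interaction differences were called at an adjusted p under 0.05. For HFD, a change of more than 1.5-fold and more than 5 FPM in the mean of a group compared were also required, as in the study. Simulated data were called by the adjusted p alone, without the fold and FPM limits. For HFD in WT aorta, 16.4%, 58.2% and 80.3% of genes changed 1.5-, 2- and 4-fold were so recovered among 15122 genes. For HFD in WT kidney, 38.8%, 79.1% and 89.4% were recovered among 15943 genes. Correlations used log2(FPM + 1) over 19 aortas and 100000 permutations, two-sided. Alternatives were DESeq2 1.42.0 size factors and Wald test, edgeR's exact test, no filter, only the groups compared, and libraries left out.

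Named were all members and, per background list, the 4 most abundant genes and any called. Of the 10 genes most like the mean of the members, 1 is not reported here. The members, lists and tests were chosen with earlier results of these data known. Exon lengths and positions are from GENCODE M21 (GRCm38). The labels do not say whether mice shared litters or cages, so p-values measure the spread between these libraries.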

Additional observations from a re-analysis of the deposited data

Results flagged for a closer look

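Of 60 sets of 5 libraries (each member in each group with any count), 5 held a library far from the other 4, where chance gives about 3. Chance flags about 1 in 20 such sets. In aorta, Acan was at 30.1 FPM in WT SFD replicate R-5, with the next library at 14.9 FPM, and at 61.8 FPM in WT HFD replicate R-10, with the next at 27.0 FPM. Prg4 was at 541 FPM in KO HFD replicate R-16, with the next at 20.2 FPM. In kidney, Chad was at 0.420 FPM in KO SFD replicate a9, with the next at 0.179 FPM, and Prg4 was at 1.16 FPM in KO SFD replicate a6, with the next at 0.583 FPM. The kidney values rest on few counts.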

How the results depend on the processing

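In aorta, 0 members were called under every alternative run except edgeR's exact test for KO against WT under HFD, which called 1, Prg4 (adjusted p = 0.0181, against 0.388 in the quasi-likelihood test). The exact test was not run without R-16. In kidney, the adjusted p alone called 3 members under HFD, where the full rule called 0. Within KO kidney, where the full rule called 0 as well, the fits that left out 1 library called 0 to 1. The 1 was Fmod, without a4 (log2 -0.62, adjusted p = 0.0378 from edgeR) or a10 (-0.63, adjusted p = 0.0257). Of the members' log2 differences, Prg4 changed sign without R-16, to -0.084 for HFD in KO and -0.27 for HFD over both genotypes. It did so as well without R-1, R-12 and R-16, an alternative chosen after seeing the data (-0.24 and -0.38). Leaving out single libraries gave -0.084 to 3.81 and -0.27 to 1.67 for these 2 differences. Acan in KO against WT under HFD ran from -0.47 to 0.30 (0.30 without WT HFD replicate R-10). Over all genes, HFD over both genotypes in aorta called 4 genes, 8 by the adjusted p alone, 17 with the DESeq2 Wald test and 1 without R-1 and R-12. KO against WT under HFD called 0, 25 with the Wald test, 27 with the exact test and 21 without R-1 and R-12. HFD in WT aorta called 1 gene, 6 with the Wald test and 5 with the exact test. In kidney HFD called 466 genes, and 2614 by the adjusted p alone. The list of 10 genes most like the members shared 5 with the list by Spearman's rho, 4 with that from deviations and 6 with that without R-5. Group means under other scalings stayed within 1 SD for all members. In the simulation of HFD in WT aorta, the adjusted p alone recovered 16.4% of the 1.5-fold differences. The comparison over both genotypes was not simulated. No paired analysis was possible because the libraries of the groups compared share no replicate numbers.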
